A study of Glycine max with 18 samples.

Results

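The soybean leaf libraries held 1018 transcribed regions outside annotated genes, out of 12234 merged stretches of assembled transcription that touched no gene. A region was built from assembled loci with a plus or minus strand on the 20 chromosomes that overlapped no annotated gene on either strand, and loci of the same strand that overlapped between libraries were merged. The 18 libraries held 43304 such loci. A region was kept where it was found in at least 2 of 3 replicates at 3 or more time points, so the members were chosen by the TPM values themselves. TPM is a level scaled for the length of a locus and for the total of its library. The value of a region in a library is the summed TPM of its loci, and 0 where the library listed none.

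Plant genomes are transcribed beyond their annotated genes, and such transcripts include long noncoding RNAs, extended gene ends, transposable elements and genes that an annotation missed. An assembler such as *StringTie* joins overlapping read alignments into loci, and where it is not told that a library records the strand, it takes the strand from spliced alignments. A locus without a spliced read can then stay without a strand, and the regions here are those for which a strand was given. The labels name a stranded total RNA kit with removal of ribosomal RNA, which also keeps transcripts without a poly(A) tail. Which of these kinds of transcript a region is was not tested, and no sequence was read, because no genome of the files' build, Gmax_Wm82_a2_v1, was used here.

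The study sampled first trifoliate leaves of wild-type Williams 82 (Ws82) soybean in constant light, at 6 time points 4 h apart (ZT24, ZT28, ZT32, ZT36, ZT40 and ZT44, called 0 to 20 h in the labels), with 3 biological replicates (L, M and R) at each. All plants had the same genotype and the same constant light, and ZT24 to ZT32 is the subjective light and ZT36 to ZT44 the subjective dark period. The plants came from short days according to the methods, while the labels describe equal light and dark. The light-harvesting gene CAB2-7, a leaf marker, was at 27.9 to 826 TPM in the 18 libraries, and the aligned sequence behind a library was 3.11 to 7.24 Gb, lowest in the 3 ZT44 libraries (3.11 to 3.53 Gb).

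Libraries differed in how many regions they held. Regions found per library were between 418 in ZT24 R and 838 in ZT40 R, with 427, 506 and 472 in ZT44 L, M and R. ZT32 R stood apart from the other 17 libraries. It held 203685 assembled loci without a strand outside genes, against 598 to 31074 in the others, and the median TPM of the regions found in it was 3.12, against 0.597 to 1.37. Of 18324 pairs of a region and a library, 6184 had the value 0. In 70.6% of these pairs no other assembled locus lay over the region, in 14.0% a locus without a strand did, and in 9.96% a locus of the same strand that also overlapped a gene did. In ZT32 R a locus without a strand lay over 74.3% of the 331 regions at 0. A value of 0 therefore does not show that the region was silent.

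Of the 1018 regions, 353 were found at 3 time points, 251 at 4, 180 at 5 and 234 at all 6, and 67 were found in all 18 libraries. Their median mean levels were 0.370 TPM for those found at 3 time points, 0.654 at 4, 0.961 at 5 and 1.80 at 6. Just outside the rule lay 643 stretches found at 2 time points, with a median of 0.237 TPM and a median length of 2906 bp, against 0.370 TPM and 3812 bp for the regions just inside it. The most frequent sets of time points after all 6 were ZT32, ZT36 and ZT40 (146 regions) and ZT28 to ZT40 (125 regions). In the subjective light 571 members were found at ZT24, 739 at ZT28 and 829 at ZT32. In the subjective dark 844 were found at ZT36, 916 at ZT40 and 468, the fewest, at ZT44.

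The regions lay on both strands in like numbers, 515 on plus and 503 on minus, and each chromosome held between 35 (chromosome 16) and 62 (chromosome 15). Their length was 542 to 345615 bp with a median of 5023 bp, and 381 never held more than 1 locus in a library. The distance to the nearest annotated gene was 0 to 622156 bp, with a median of 12465 bp. Regions within 1 kb of a gene numbered 222, which is 21.8% (95% Wilson interval 19.4 to 24.4%, as counting error only). A further 270 lay 1 to 10 kb away, 334 at 10 to 100 kb and 192 beyond 100 kb. Counted by bases, 0.787% of the sequence in regions lay within 1 kb of a gene, against 12.7% of all sequence between genes. Long regions weigh most in this share, and their merged spans do not count transcribed bases. The rule also left out loci that overlap a gene, so the contrast is partly set by it. A window of 1000 kb around a region held a median of 25 annotated genes, while a window around an annotated gene held 101.

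Length and surroundings changed together with distance. The median length was 2974 bp within 1 kb of a gene, 3574.5 bp at 1 to 10 kb, 10251 bp at 10 to 100 kb and 20813.5 bp beyond 100 kb. The median number of genes per window was 97, 76, 13 and 6 in the same 4 classes. Most of the long regions were in gene-poor sequence, and the 39 regions over 100 kb had a median of 7 genes in their window. By the rule a region overlaps no gene, so a long region can lie only in a long gap between genes. The link of length with gene density is thus partly set by the rule. Long regions also held more loci: those over 100 kb held a median of 10 in the library with most loci, while those up to 2 kb held 1. In the regions over 100 kb the longest single locus had a median of 96109 bp. Lengths are spans of loci merged over the libraries and do not count transcribed bases.

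**Figure D1:**
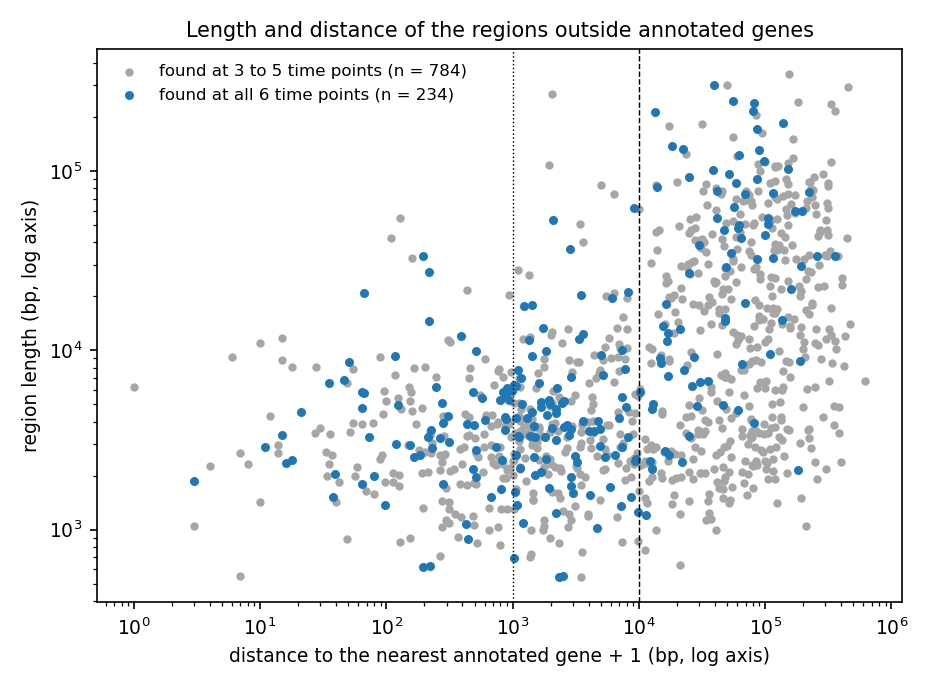
Length of each region (y axis, bp, log scale) against its distance to the nearest annotated gene plus 1 (x axis, bp, log scale), for the 234 regions found at all 6 time points and the 784 found at 3 to 5; dotted and dashed lines stand at 1 and 10 kb. Regions of more than 20 kb lie mostly to the right of the dashed line.

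Close to genes, the regions more often followed a gene on its own strand. Within 1 kb, 91 of 222 regions (41.0%) lay downstream of a gene of the same strand, 54 (24.3%) tail to tail with a gene of the other strand, 45 (20.3%) upstream on the same strand and 32 (14.4%) head to head. Beyond 100 kb the 4 arrangements took 26.6%, 25.5%, 22.9% and 25.0% of 192 regions. The region was on the strand of the gene in 61.3% of cases within 1 kb and in 49.5% beyond 100 kb. Among annotated genes 52.8% shared the strand of their nearest gene without overlap, at any distance (median 2527 bp) and so not at a like distance. The strand settings used for alignment and assembly are not given in the sources used here.

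The time course was tested on log2(TPM + 1) with *limma*, with p-values adjusted by Benjamini-Hochberg over all 25365 annotated genes and regions that averaged at least 1 TPM at any time point. Of the 1018 regions, 745 passed this filter, 224 of them among the 234 found at all 6 time points. A region found at only 3 to 5 time points was listed at 0 in at least 2 of 3 replicates at the others through the rule itself, so the 224 are described first. In bulk leaf RNA, fewer cells with a transcript and less of it per cell cannot be told apart. The F-test over 6 time points called 112 of the 224 (50.0%), where 74.1% of all features tested were called. The 24-h cosine called 103 (46.0%), where 64.0% of all features were called. Among the 67 regions found in all 18 libraries the F-test called 38 and the cosine 36. Of the 745 regions the F-test called 501 and the cosine 450, counts that the rule shaped and that are given as a description.

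The share of called regions followed the level. Among regions found at all 6 time points, 19.5% of 41 with a mean under 1 TPM passed the F-test, against 63.4% of 4372 annotated genes at that level. The shares were 33.3% of 78 regions and 66.3% of genes at 1 to 2 TPM, and 68.2% of 66 regions and 78.1% of genes at 2 to 5 TPM. At 5 TPM and more they were 84.6% of 39 regions and 84.6% of genes. The regions were called less often than genes below 5 TPM and equally often above, as counts without a test. The median range between the highest and lowest time point on the log2 scale was 2.85 for regions and 1.47 for genes at 5 TPM and more.

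In the subjective dark 41 of the 224 regions were higher and 10 lower, where 51.5% of all features were higher and 10.5% were lower. The median difference of dark minus light was 0.14 for these regions and 0.35 for annotated genes on the log2 scale. Over all features it was 0.34 as deposited and 0.08 after quantile normalization. After quantile normalization 19 of the regions were higher and 21 lower, so the share of calls that were higher fell to 47.5%, against 80.4% as deposited, and for annotated genes it was 60.1% against 83.5%. The balance of higher and lower calls among the regions thus depended on the scaling. Of the 745 regions 82 were higher and 102 lower, and without ZT32 M the number lower was 177.

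The counts also differed with the distance from genes, at a split of 10 kb that was made after the values were seen. Of 145 tested regions found at all 6 time points and within 10 kb of a gene, 55 (37.9%) passed the F-test. Of 79 farther away 57 (72.2%) did. Over all features tested 74.1% passed, so the far share was close to this and the near share was below it. The median range on the log2 scale was 0.90 near genes and 2.13 far from them. With each library left out in turn, the count was 49 to 69 for the near regions and 56 to 61 for the far regions. In the subjective dark 35 near regions were higher and 7 lower, and 6 far regions were higher and 3 lower. Over all features 51.5% were higher and 10.5% lower. After quantile normalization 17 near regions were higher and 13 lower, and 2 far regions were higher and 8 lower, so the balance of higher and lower calls depended on the scaling in both classes. The far regions were longer, with a median of 32437 bp against 3722 bp, and had a median level of 2.45 TPM against 1.64 TPM. These shares are given as counts, without a test of the difference.

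The far regions were highest at ZT32. Of the 79, 58 (73.4%) had their highest mean at ZT32, and of the 57 past the F-test 53 did. Of the 155 near regions, 15 were highest at ZT24, 8 at ZT28 and 29 (18.7%) at ZT32. The remaining near regions were highest in the subjective dark, with 31 at ZT36, 44 at ZT40 and 28 at ZT44. Among annotated genes 5.67% were highest at ZT32, 33.0% at ZT36 and 31.6% at ZT40. Without ZT32 R, 55 of the 79 far regions and 33 of the 155 near regions were highest at ZT32. After quantile normalization 60 far regions and 60 near regions were, and the genes had 16.3% at ZT32, 26.6% at ZT36 and 11.6% at ZT40. The shares of the near regions and of the genes thus depended on the scaling.

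**Figure D2:**
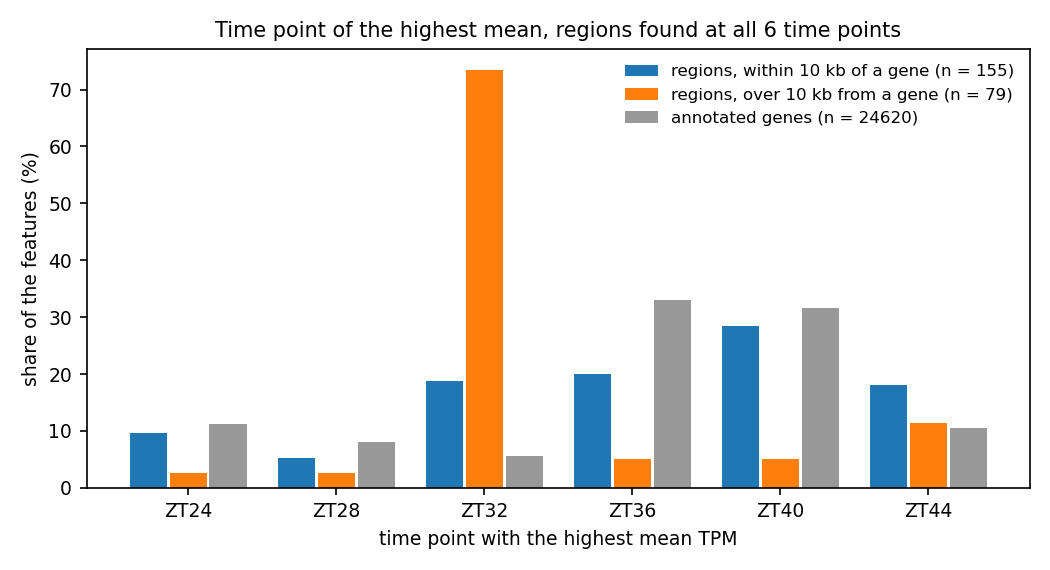
Share of features (y axis, %) by the time point of their highest mean TPM (x axis), for regions found at all 6 time points within 10 kb of a gene (n = 155) and over 10 kb from a gene (n = 79), and for annotated genes tested (n = 24620). ZT32 takes 73.4% of the far regions, 18.7% of the near regions and 5.67% of the genes.

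Summed per library, the near regions varied less between libraries than the far regions, here over all members but the most abundant near one. The rule for members used these values, and of the far members 95.8% were found at ZT32 and 21.3% at ZT44, so the sums are a description that the rule shaped. The near regions, without the single most abundant one, summed to 1256, 985 and 695 TPM in ZT24 L, M and R and to 956, 887 and 903 TPM at ZT28. They summed to 1054, 1057 and 1075 TPM at ZT32, to 1051, 1405 and 1043 TPM at ZT36, to 1217, 1197 and 1135 TPM at ZT40 and to 971, 999 and 1104 TPM at ZT44. Without that region the near sum differed 2.02-fold between the lowest and highest library. The region left out had 6344, 4760 and 7221 TPM in ZT32 L, M and R and 0 in ZT24 R. With it, the near sums would also be highest in the ZT32 libraries and differ more between libraries.

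The far regions summed to 201, 218 and 52.2 TPM in ZT24 L, M and R and to 1303, 226 and 234 TPM at ZT28. They summed to 1440, 1308 and 4162 TPM at ZT32, to 845, 434 and 624 TPM at ZT36, to 745, 703 and 628 TPM at ZT40 and to 133, 169 and 172 TPM at ZT44. The lowest and the highest library differed 79.8-fold, and the 3 ZT32 libraries lay above the other 15. ZT28 L came next, just below ZT32 M and far above ZT28 M and R. Loci without a strand numbered 9660, 18133 and 3771 in ZT28 L, M and R, 23193, 21184 and 203685 in ZT32 L, M and R and 31074, 1715 and 6477 in ZT36 L, M and R. They were most numerous in ZT32 R, which had the highest far sum, and fewest in ZT24 R (598), which had the lowest. Within ZT28, M had more of them than L and a lower far sum. Whether these loci and the far sums are linked was not tested. The part of these differences between libraries in the time course of the far regions was not tested either.

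**Figure D3:**
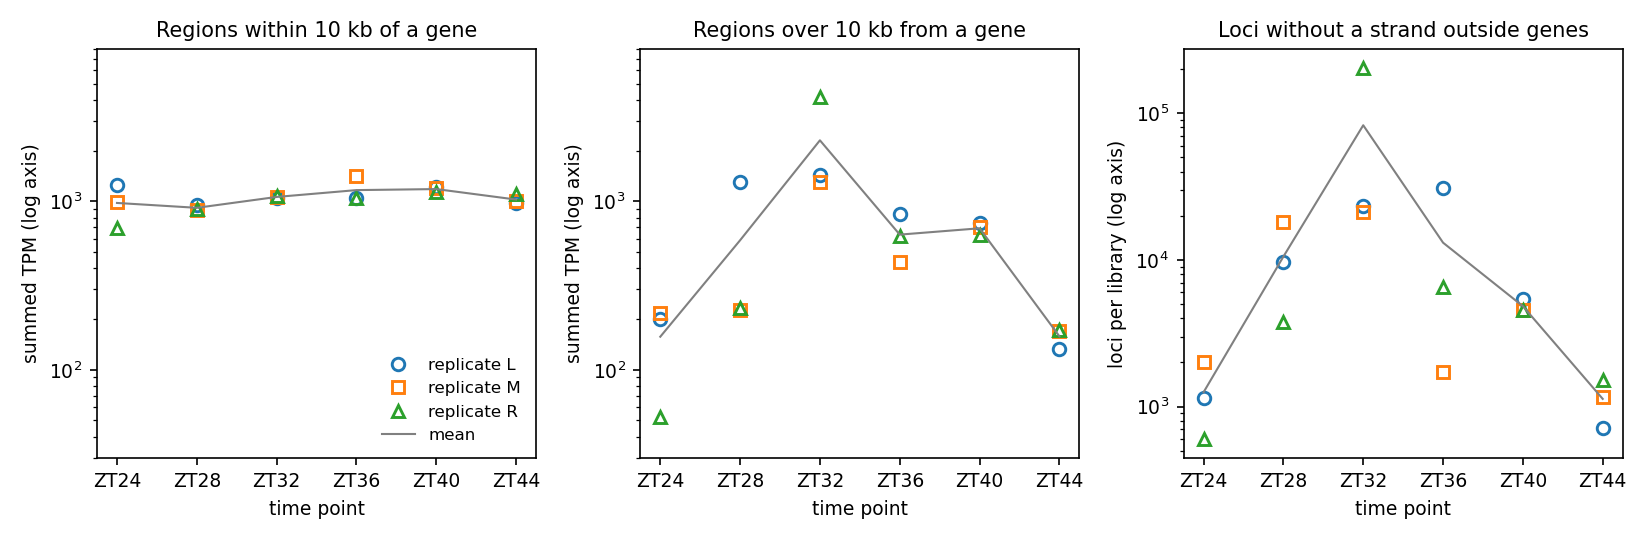
Summed TPM (y axis, log scale) of the regions within 10 kb of a gene (left, without the most abundant region) and over 10 kb from one (middle), and the number of assembled loci without a strand outside genes (right, log scale), by time point (x axis); symbols are replicates L, M and R and the line joins their means. The near sums lie between 695 and 1405 TPM, the far sums between 52.2 and 4162 TPM.

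Near genes, regions were named by the widest range for each highest time point. Their spread over the day was therefore set by this choice. At chr9:40008993-40011408, plus strand, a single locus of 2416 bp had 29.9, 42.5 and 33.7 TPM at ZT24, 94.7, 108 and 147 TPM at ZT28 and 48.9, 48.7 and 22.8 TPM at ZT32. It had 9.65, 13.5 and 12.0 TPM at ZT36, 38.8, 34.7 and 42.7 TPM at ZT40 and 47.7, 37.0 and 34.5 TPM at ZT44. The ZT28 values lay above and the ZT36 values below those of every other time point, with a range of 3.20 on the log2 scale (*limma* F-test, adjusted p = 4.1e-07). It lies 9251 bp downstream of Glyma.09G175800 on the same strand, and the nearest gene that reached 1 TPM was 37214 bp away.

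A region on chromosome 18 was likewise highest at ZT28 and lowest at ZT36, at a lower level. The region chr18:46442881-46445265, minus strand, 2385 bp long and found in all 18 libraries, had 11.1, 9.23 and 6.07 TPM at ZT28 and 1.04, 1.07 and 0.734 TPM at ZT36. Its other values were between 2.43 and 8.19 TPM, so that ZT36 alone did not overlap the rest (range 2.30, *limma* adjusted p = 1.6e-05). It lies 3247 bp downstream of Glyma.18G192500 on the same strand. Both of these regions were lower in the subjective dark, and the chromosome 18 region had a difference of dark minus light of -0.92 ± 0.17 (SE) on the log2 scale.

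A single region met the rule for named regions with its highest time point at ZT24. At chr7:16152203-16153713, minus strand, 37 bp from Glyma.07G136400 tail to tail, ZT24 had 3.97, 7.95 and 6.36 TPM. The other time points had 0 to 4.21 TPM and overlapped ZT24 through 1 value, 4.21 TPM in ZT44 M (range 1.71, *limma* adjusted p = 0.0075). With TPM rescaled without the 100 highest genes the call was lost (adjusted p = 0.081).

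Regions highest at ZT36 stood beside genes on either strand. The region chr10:46050286-46052380, minus strand, 2095 bp, had 4.22, 4.27 and 4.15 TPM at ZT36, and 1.73, 3.69 and 1.37 TPM at ZT40. In the 12 other libraries it had 0 to 1.17 TPM, and ZT36 did not overlap any other time point (range 2.08, *limma* adjusted p = 1.9e-06). It lies 1670 bp upstream of Glyma.10G230600 on the same strand, and this gene averaged 55.4 TPM at ZT36, 29.2 TPM at ZT40 and 1.78 to 6.56 TPM at the other time points, a correlation of 0.98 over the 6 time-point means of the same libraries, and the region had the same 0.98 with the next expressed gene. With loci without a strand added it had 2.40 TPM in ZT32 M. The region chr8:41844393-41850310, plus strand, 5918 bp, had 4.61, 4.28 and 4.50 TPM at ZT28 and 10.6, 12.1 and 11.8 TPM at ZT36 (range 1.20, *limma* adjusted p = 0.00029). It lies head to head with Glyma.08G300400, 986 bp apart, and correlated with it at 0.06, and after quantile normalization its adjusted p was 0.060.

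At ZT40 the widest near regions were also close to a gene. The region chr12:35040196-35041266, plus strand, 1071 bp, had 2.10, 3.35 and 0 TPM at ZT32, 5.82, 6.23 and 10.1 TPM at ZT36 and 8.87, 9.53 and 10.3 TPM at ZT40. The remaining libraries had 1.79 to 7.42 TPM (range 2.15, *limma* adjusted p = 0.0019). It lies 426 bp upstream of Glyma.12G188800 on the same strand, with a correlation of 0.93, and of -0.14 with the next expressed gene. The region chr5:36485037-36491894, minus strand, 6858 bp, had 0.474, 0.153 and 0 TPM at ZT24 and 1.73, 2.32 and 1.12 TPM at ZT40 (range 1.17, *limma* adjusted p = 0.017). It lies 45 bp from Glyma.05G175800, tail to tail, and its call was lost after quantile normalization (adjusted p = 0.27), with TPM rescaled without the 100 highest genes (0.091), with no filter (0.074), without ZT24 R (0.055) and without ZT40 M (0.068).

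The 2 regions named as highest at ZT44 had ranges close to the narrower ones named for ZT36 and ZT40. The region chr13:10465094-10471639, minus strand, 1616 bp from Glyma.13G032700 tail to tail, had 1.07, 1.20 and 0 TPM at ZT32 and 3.26, 2.66 and 2.28 TPM at ZT44 (range 1.16, *limma* adjusted p = 0.013). Without ZT32 R, where it is listed at 0, the adjusted p was 0.052, with loci without a strand added it was 0.32, and without the time point ZT44 it was 0.072. The region chr20:21453182-21459958, plus strand, 35471 bp from the nearest gene, had 2.02, 2.08 and 2.12 TPM at ZT44 and 0.188 to 1.91 TPM in the other libraries that held it (range 1.08, *limma* adjusted p = 0.0075). It was at 0 in ZT32 R, and its adjusted p was 0.062 with loci without a strand added and 0.078 without the time point ZT44.

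**Figure D4:**
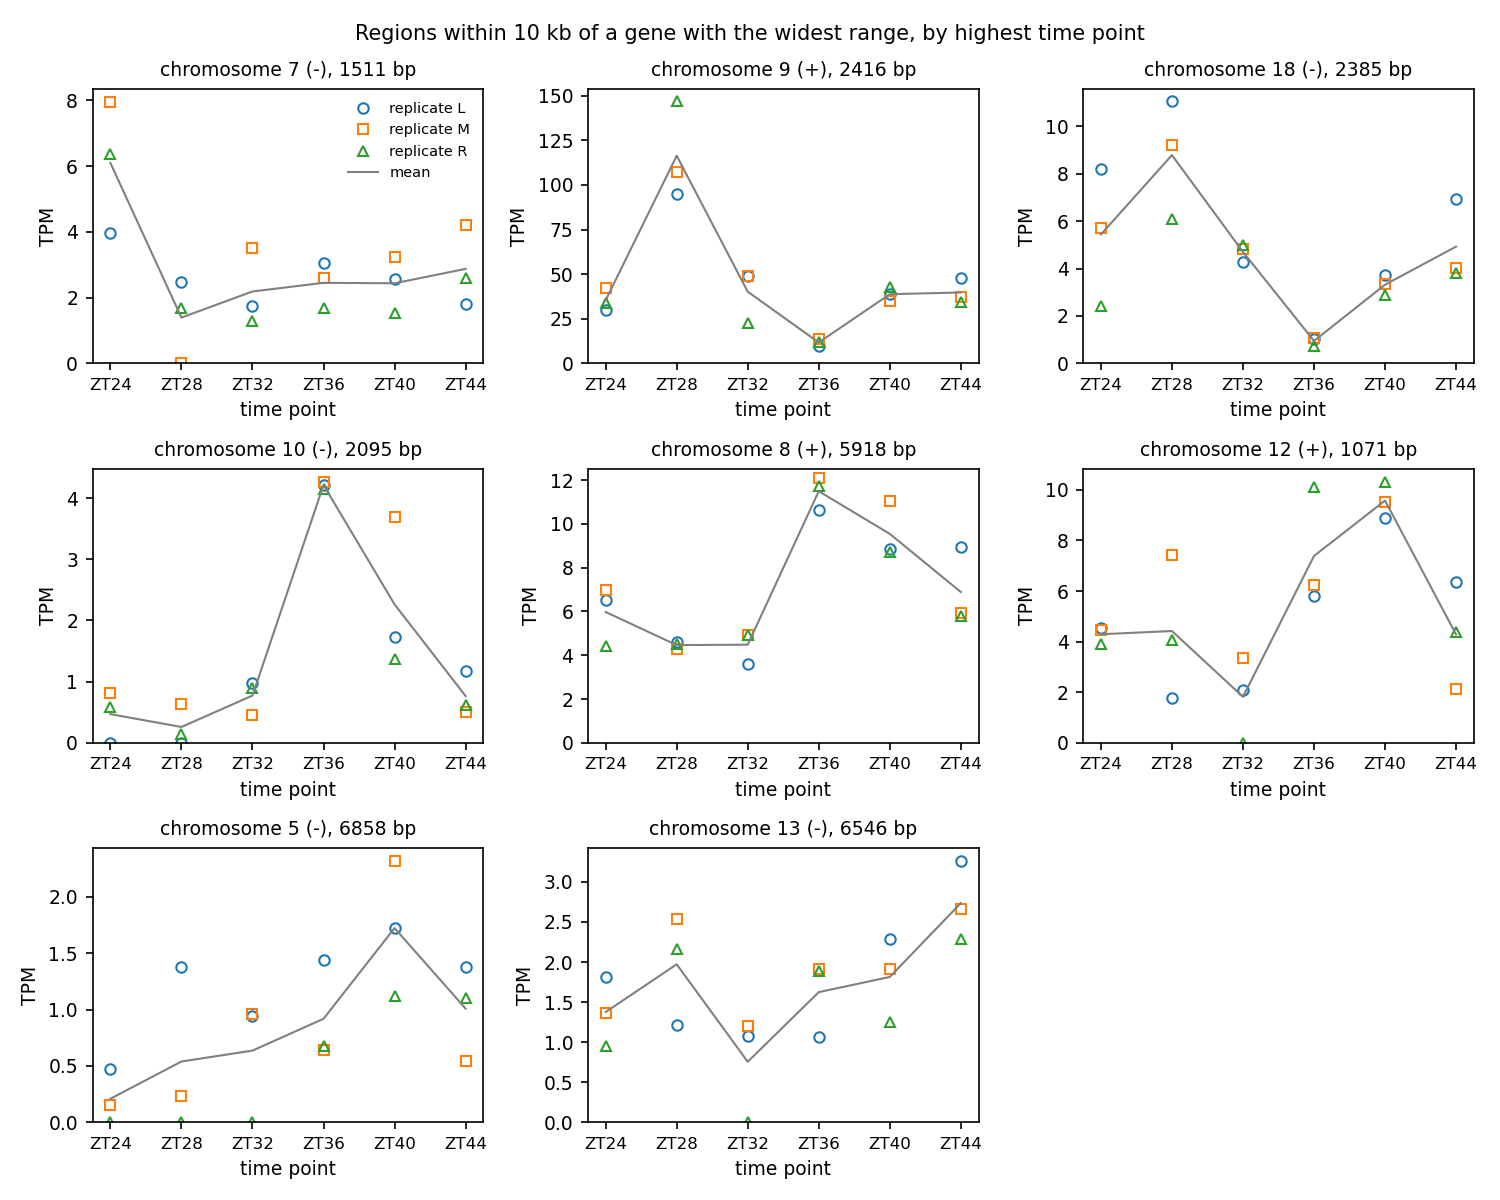
TPM (y axis, linear) by time point (x axis) of the 8 regions within 10 kb of a gene that had the widest range for their highest time point; symbols are replicates L, M and R and the line joins their means. The chromosome 9 region spans 9.65 to 147 TPM, and the chromosome 10 region lies at 4.15 to 4.27 TPM in the 3 ZT36 libraries.

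Far from genes, 5 of the regions named for range, length or distance were long and highest at ZT32. The region chr5:16663647-16965135, plus strand, covers 301489 bp, the second longest of all, with up to 36 loci in 1 library. It had 1.76, 1.43 and 0 TPM at ZT24, 18.4, 1.89 and 3.21 TPM in ZT28 L, M and R and 23.6, 23.0 and 90.2 TPM at ZT32. It had 19.1, 5.16 and 4.48 TPM at ZT36, 17.3, 11.7 and 2.70 TPM at ZT40 and 1.31, 1.03 and 0 TPM at ZT44, so that ZT32 did not overlap the rest (range 4.50, *limma* adjusted p = 2.3e-05). With loci without a strand added it had 111 TPM in ZT32 R. With only its highest locus counted in each library, in place of the sum, its range was 2.30 (*limma* adjusted p = 0.0010). A window of 1000 kb around it held 5 annotated genes.

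The longest region had the same order of time points. The region chr11:13023455-13369069, plus strand, covers 345615 bp and lies 154902 bp from the nearest gene. It had 0.561, 0.308 and 0 TPM at ZT24, 5.63, 0.783 and 1.19 TPM at ZT28 and 6.45, 6.49 and 22.5 TPM at ZT32. It had 1.48 to 3.64 TPM at ZT36 and ZT40 and was listed at 0 in all 3 ZT44 libraries, the shallowest of the series (range 3.45). It was found at 5 time points, so that its range is shaped by the rule for members. With loci without a strand added it had 172 TPM in ZT32 R and 18.2 TPM in ZT36 L.

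The regions found in all 18 libraries that lay farthest from genes were also of this kind. The region chr17:29710995-29740408, minus strand, 193287 bp from the nearest gene, had 0.276, 1.03 and 0.284 TPM at ZT24 and 5.35, 3.18 and 9.98 TPM at ZT32 (range 2.15, *limma* adjusted p = 0.00011). It had 3.63, 3.20 and 3.67 TPM at ZT36 and 3.25, 2.49 and 2.73 TPM at ZT40. ZT32 M thus lay below each ZT36 library and below ZT40 L. The region chr18:29868520-29928133, minus strand, 171363 bp from the nearest gene, had 10.6, 7.09 and 16.5 TPM at ZT32 and 0.383, 1.77 and 0.545 TPM at ZT44 (range 2.70, *limma* adjusted p = 5.5e-05). The chromosome 18 region had 4.70 TPM in ZT28 L, against 0.641 and 0.736 TPM in ZT28 M and R. With loci without a strand added it had 38.4 TPM in ZT32 R and 7.86 TPM in ZT28 L.

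A last far region, chr19:20600116-20659769, minus strand, is 59654 bp long and 194571 bp from the nearest gene, with 3 annotated genes in its window. It had 0.392, 0.243 and 0 TPM at ZT24, 10.7, 0.823 and 2.31 TPM at ZT28 and 12.8, 10.3 and 33.2 TPM at ZT32 (range 3.86, *limma* adjusted p = 5.3e-06). In all 5 of these long regions ZT32 R was the highest library of the 18 and ZT28 L the highest of its time point. The 4 that were found at all 6 time points passed the F-test in each alternative, with each library left out included, and their largest adjusted p was 0.0023.

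**Figure D5:**
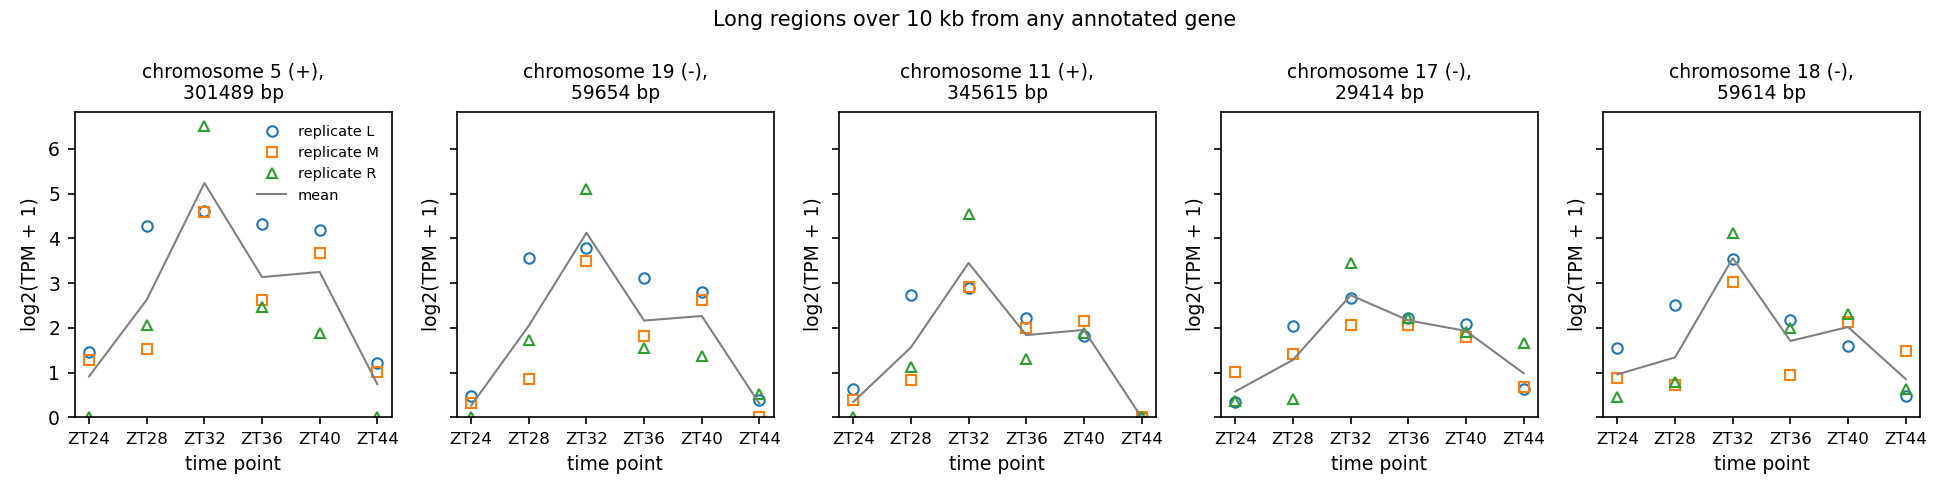
Level on the log2(TPM + 1) scale (y axis) by time point (x axis) of 5 long regions over 10 kb from any annotated gene, named for range, length or distance; symbols are replicates L, M and R and the line joins their means. ZT32 holds the highest mean in each, and replicate L stands above M and R at ZT28.

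Few regions were abundant, with 23 of the 1018 at a mean of 10 TPM or more. The most abundant, chr13:29966110-29968424, minus strand, 2315 bp, averaged 1905 TPM but was listed at 0 in 6 libraries. It had 0, 3074 and 0 TPM at ZT24, 0 in all 3 ZT28 libraries and 6344, 4760 and 7221 TPM at ZT32. It had 1005, 2745 and 1203 TPM at ZT36, 3289, 1285 and 1274 TPM at ZT40 and 950, 1135 and 0 TPM at ZT44. With loci without a strand added it was above 0 in all 18 libraries, at 3412 to 15624 TPM with a median of 4922 TPM, so loci without a strand lay over it where it was listed at 0. It lies 2004 bp from Glyma.13G185900, tail to tail.

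The next in level was higher in the subjective dark. The region chr2:12125345-12127952, minus strand, 2608 bp, found in all 18 libraries, had 89.2, 134 and 86.7 TPM at ZT24, 70.7, 54.9 and 85.6 TPM at ZT28 and 44.6, 60.2 and 22.5 TPM at ZT32. It had 151, 182 and 180 TPM at ZT36, 165, 161 and 140 TPM at ZT40 and 150, 96.0 and 188 TPM at ZT44. The difference of dark minus light was 1.23 ± 0.19 (SE) on the log2 scale, with a range of 2.09 (*limma* F-test adjusted p = 5.8e-05). ZT44 M was the only dark library within the range of the light libraries. The region lies head to head with Glyma.02G122100, 6421 bp apart.

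The region chr20:37280436-37281678, plus strand, 1243 bp, had 63.8, 82.3 and 67.1 TPM at ZT36, 42.3, 78.7 and 107 TPM at ZT40 and 26.1 to 63.6 TPM in the other libraries (range 1.03, *limma* adjusted p = 0.016). It lies head to head with Glyma.20G132600, 2203 bp apart, and correlated with it at 0.82 and with the next expressed gene at 0.91. The region chr3:34370356-34374128, minus strand, 3773 bp, had 192, 74.5 and 201 TPM at ZT32 but was listed at 0 in 5 libraries, of ZT24, ZT36, ZT40 and ZT44. With loci without a strand added it had 30.7 to 201 TPM in all 18 libraries. Its F-test (*limma* adjusted p = 0.030) was lost when ZT32 L, ZT32 R, ZT40 M, ZT40 R or ZT44 L was left out in turn, with adjusted p between 0.052 and 0.081. It was also lost with no filter (0.15), with TPM rescaled without the 100 highest genes (0.11), with a pseudocount of 0.1 (0.090) and after quantile normalization (0.072). This region was found at 5 time points, so that the rule for members bears on its test.

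Some regions had time-point means that varied little over the day. Among regions found in all 18 libraries with at least 1 TPM, chr18:1247560-1251400, minus strand, had 1.44 to 2.92 TPM with a coefficient of variation of 14.4% over the 6 time-point means. The region chr2:44997683-44998566, plus strand, 884 bp, had 7.34 to 27.7 TPM with 16.3%. Neither passed the F-test (*limma* adjusted p = 0.50 and 0.48). Over the 234 regions found at all 6 time points the median coefficient of variation was 44.1%, against 40.8% for annotated genes.

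The regions and their nearest genes were weakly correlated over time. Over the 224 tested regions found at all 6 time points, the median correlation with the nearest annotated gene that reached 1 TPM was 0.19 over the 6 time-point means, as a description, and 0.08 with the next such gene. Among annotated genes and their nearest expressed gene the same median was 0.47. For the regions it was 0.40 within 1 kb (n = 27), 0.34 at 1 to 10 kb (n = 82), 0.12 at 10 to 100 kb (n = 71) and 0.06 beyond (n = 44). The genes had 0.54, 0.48, 0.42 and 0.33 in these classes. In every class the median was lower for regions than for genes, and it decreased with distance in both. All these values come from the same libraries, so shared differences between libraries enter each of them.

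By arrangement, within 10 kb of the gene, the median was 0.43 for 28 regions upstream of a same-strand gene and 0.35 for 31 downstream of one. It was 0.26 for 26 tail-to-tail regions and 0.07 for 24 head-to-head regions. The 9 regions within 1 kb that passed the F-test had a median of 0.80, and the 71 past it whose nearest expressed gene was over 10 kb away had 0.05. The middle part of each class was wide, from -0.14 to 0.54 over all 224 regions.

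None of the 14 genes that the study pairs with an identifier, in its text or its figures, had a member within 10 kb, and of all 55589 annotated genes on the chromosomes 2.07% did. These are mostly clock and light-signalling genes, such as the LHY genes, which encode morning transcription factors of the clock, and TOC1c, a pseudo-response regulator. The nearest member was 40.7 kb from CAB2-7, 54.5 kb from PIF4 and 61.7 kb from LUX2, and the farthest was 1073 kb from TOC1c. The files do not pair the other gene identifiers with names.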

How the data were processed

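RNA-seq of 18 leaf libraries was analysed. The authors trimmed with *Trimmomatic*, used *HISAT2* 2.2.1 for alignment to Gmax_Wm82_a2_v1, and assembled and quantified loci with *StringTie*. The strand setting is not given in the sources used here. The deposited tables give coverage, FPKM and TPM per gene and assembled locus. TPM was used as deposited, FPKM as an alternative, and coverage over FPKM gave the aligned sequence. No model of counts was fitted, since no table has them. The TPM of assembled loci alone sums to the full scale of the unit, so the lines of annotated genes come on top of it, and a gene on 2 lines was summed.

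Loci were merged into regions by position and strand, and distances were counted in bases between region and gene. Values were tested as log2(TPM + 1), which understates changes of low values, with *limma* 3.58.1 in R 4.3.3 (eBayes with trend, all 18 libraries, Benjamini-Hochberg, threshold 0.05), after tests on simulated data. Tables and figures used Python 3.11.15, pandas 2.3.3, numpy 2.4.6, scipy 1.17.1 and matplotlib 3.10.9. The members, lists and tests were chosen with earlier results of these data known. The regions named are: up to 2 per highest time point with the widest range, among those found at all 6 time points, past the F-test and highest at 1 time point in each of L, M and R; the 4 highest mean TPM; the 2 longest; the 2 farthest from genes and the 2 with the lowest coefficient of variation, found in all 18 libraries; and the nearest within 10 kb of 14 named genes. The replicate letters were checked for pairing and did not pair the libraries. The alternatives were other pseudocounts, filters, scalings, locus and region rules, the block for replicates, and leaving out single libraries. Adding same-strand loci over a gene was chosen after seeing the data.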

Additional observations from a re-analysis of the deposited data

Results flagged for a closer look

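Assembled loci without a strand were used for no region. Outside annotated genes they numbered 203685 in ZT32 R, against 598 to 31074 in the other 17 libraries. Their median length was 273 to 408 bp in the 18 libraries, against 1127 to 1818 bp for loci with a strand. For several named regions, values with them added are given beside those without.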

How the results depend on the processing

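The number of regions was 426 when all 3 replicates had to hold a region at 3 or more time points, 234 when all 6 time points were required, and 876 to 1020 under the 3 other rules for members. The share within 1 kb of a gene was 27.8% for regions found at all 6 time points, 14.7% with the nearest gene on the same strand, and 0 by construction where no gene was allowed within 1 kb. For the regions found at all 6 time points, the F-test called 75 to 128 over the alternatives, against 112, and the cosine 69 to 108, against 103. These counts stayed within a factor of 1.5. The lowest, 75 and 69, came at a filter of 5 TPM, where 83 regions were tested instead of 224, so the called share was higher there. Of the regions found at all 6 time points, 19 were higher in the subjective dark at a filter of 5 TPM, against 41. After quantile normalization 19 were higher, and 26 with the 100 highest genes left out of the scale. Lower were 6 at the 5 TPM filter, 5 with no filter and 21 after quantile normalization, against 10. With single libraries left out, the F-test called 107 to 128 of these regions and the cosine 91 to 104, and 33 to 55 were higher and 7 to 14 lower in the dark.

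Over all tested regions, whose number the filters set, the F-test called 174 at 5 TPM, 263 at a mean of 1 TPM over all libraries, 290 with all 3 replicates required and 121 with all 6 time points, against 501. The cosine called 163 and 242 under the first pair, against 450. Higher in the dark were 23 and 50 under that pair and 35 after quantile normalization, against 82. Lower were 39 and 56 under that pair, 58 with a pseudocount of 0.1, 47 with no filter and 57 rescaled without the 100 highest genes, against 102, and 69 to 177 with single libraries left out. The median correlation with the nearest gene was 0.10 after quantile normalization and 0.078 with the next gene, against 0.19. The cause of these changes was not tested, except that filters and stricter rules leave fewer regions. With the replicate block the F-test called 517 of all tested regions and 117 of those found at all 6 time points. Replicate letters share no more than a letter: same-letter libraries correlated at -0.368 to 0.319 in their deviations, and 8 of 18 were closest to their own letter. The 18 named regions past the F-test kept that call in 531 of 552 comparisons with an alternative. Those named for a wide range were chosen because they passed the F-test, and the alternatives use the same libraries. The count is therefore a description and not support for these calls. Low values rest on few reads, and the depth per locus is unknown.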
